A study of Mus musculus with 6 samples.

Results

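Constant promoter regions of ordinary width were stretches of open chromatin at the starts of protein-coding genes that were called as peaks in every library of the series. They were chosen from the peak lists themselves. Peaks of the 6 lists that overlapped by 1 bp or more on chromosomes 1 to 19 were merged, and a region was kept when it held a peak in all 6 libraries, was under 2000 bp wide and lay within 1 kb of the start of a protein-coding transcript (GENCODE M21, GRCm38). This left 12564 regions, which were 10.8% of the 116783 merged regions and 32.1% of the 39088 regions with a peak in every library. Presence in both states, width and nearness to a start were fixed by this choice and are given below only as description. The choice also held back how far a region could differ between the states, since a promoter that lost its peak in either state was not kept.

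Chromatin was profiled with ATAC-seq, where a transposase inserts sequencing adapters wherever DNA is accessible. The material was neural stem cell cultures of the subependymal zone (SEZ), the neurogenic niche that lines the lateral ventricles of the adult mouse brain. All cultures came from mice labelled as 10 weeks of age on a C57BL/6J background, and all lacked Srr2, a *Sox2* enhancer that had been removed with CRISPR-Cas9 (Srr2 del/del), so the deletion was shared by both groups. Proliferating cultures (PROLIF) were grown attached for 2 days in vitro (2 DIV) with bFGF, as the sample labels and methods state, while the design text of the series gives 3 DIV. Early differentiating cultures (DIFF) were taken 1 day after mitogens were withdrawn and 2% fetal bovine serum was added (2 + 1 DIV). There were 3 libraries per state, numbered 1, 2 and 4. Cultures of wild-type mice are not analysed here. The mutants descended from 2 founder lines, and which line gave which library is not given in the sources used here. Libraries were made from whole cultures, so fewer cells with an open promoter and less opening per cell cannot be told apart. P-values over these libraries measure the spread between the libraries, which may be partly technical.

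The lists held between 60006 peaks (PROLIF replicate 4) and 88039 peaks (DIFF replicate 4). The local background behind the peaks, which follows depth, ranged from 2.85 to 2.97 reads over the 3 PROLIF replicates. For DIFF replicates 1, 2 and 4 it was 3.63, 2.96 and 6.01 reads, so DIFF replicate 4 stood apart. The part of this difference in the results was not tested. Peak strength is given as the fold enrichment of a region's best-ranked peak over the local background of the same library. The rank of that peak in its own list is given as a percentile, where 100 is the strongest peak.

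Promoters carry the sites at which RNA polymerase II and the general transcription factors assemble, and in active genes the DNA just upstream of the start is kept free of nucleosomes. Most mammalian promoters lie in CpG islands, short stretches rich in unmethylated CpG that are bound by factors such as SP/KLF proteins, NRF1, YY1, NFY and ETS proteins and that are open in most cell types. Enhancers far from genes hold fewer CpG, bind cell type factors such as SOX and basic helix-loop-helix proteins, and differ more between cell states.

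The windows below, up to 100 bp on either side of the summit on the strand of the gene, show the range of sequence found in these regions. The first 3 are among the strong members of the gene lists, with motifs common in the whole set, and the others are among the regions with the largest changes between the states. Windows were cut where they met an annotated exon, which shortened that of *Sertad4* to 186 bp, so none overlaps one. Capitals mark matches to a motif in either orientation.
*Mcm3*, chr1:20820331-20820531, minus strand: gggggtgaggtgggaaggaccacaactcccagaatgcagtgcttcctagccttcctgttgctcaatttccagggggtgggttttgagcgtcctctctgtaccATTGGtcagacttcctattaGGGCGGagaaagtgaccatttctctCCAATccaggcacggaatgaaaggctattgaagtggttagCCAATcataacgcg
*Vcl*, chr14:20929077-20929277, plus strand: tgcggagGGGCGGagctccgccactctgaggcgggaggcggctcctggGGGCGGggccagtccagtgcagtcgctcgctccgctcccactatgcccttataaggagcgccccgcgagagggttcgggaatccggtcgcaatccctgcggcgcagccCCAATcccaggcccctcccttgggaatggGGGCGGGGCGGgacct
*Klf6*, chr13:5861243-5861443, plus strand: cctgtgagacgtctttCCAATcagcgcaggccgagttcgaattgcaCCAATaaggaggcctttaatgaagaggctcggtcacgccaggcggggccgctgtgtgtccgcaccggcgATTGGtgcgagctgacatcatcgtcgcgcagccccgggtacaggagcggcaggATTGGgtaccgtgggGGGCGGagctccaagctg
*Sertad4*, chr1:192851748-192851933, minus strand: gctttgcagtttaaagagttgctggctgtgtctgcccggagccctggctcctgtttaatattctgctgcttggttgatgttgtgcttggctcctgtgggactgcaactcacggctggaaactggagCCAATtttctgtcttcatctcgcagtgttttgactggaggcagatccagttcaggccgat
*Lgals12*, chr19:7606218-7606418, minus strand: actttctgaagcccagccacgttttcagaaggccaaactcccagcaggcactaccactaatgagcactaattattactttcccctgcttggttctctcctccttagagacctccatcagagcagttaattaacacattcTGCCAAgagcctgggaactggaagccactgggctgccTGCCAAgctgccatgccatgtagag
*Smurf1*, chr5:144898560-144898760, minus strand: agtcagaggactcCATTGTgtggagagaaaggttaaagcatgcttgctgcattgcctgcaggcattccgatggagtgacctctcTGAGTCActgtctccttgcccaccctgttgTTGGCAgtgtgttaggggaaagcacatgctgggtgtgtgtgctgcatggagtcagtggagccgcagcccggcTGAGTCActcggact
*Dnajc5b*, chr3:19509376-19509576, plus strand: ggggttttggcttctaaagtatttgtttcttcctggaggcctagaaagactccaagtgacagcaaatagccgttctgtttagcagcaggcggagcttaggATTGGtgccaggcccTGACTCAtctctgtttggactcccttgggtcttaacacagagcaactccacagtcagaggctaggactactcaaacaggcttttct
*Cyth1*, chr11:118211912-118212112, minus strand: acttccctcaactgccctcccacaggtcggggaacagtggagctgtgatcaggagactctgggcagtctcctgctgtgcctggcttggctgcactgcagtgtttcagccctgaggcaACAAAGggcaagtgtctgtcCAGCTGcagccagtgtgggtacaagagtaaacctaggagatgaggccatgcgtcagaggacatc

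The windows of *Mcm3* (a subunit of the replicative helicase), *Vcl* (vinculin) and *Klf6* (a zinc finger transcription factor) lie upstream of the start and hold GC boxes (GGGCGG, the SP/KLF site) and CCAAT boxes (the NFY site). *Mcm3* has 1 GC box and 3 CCAAT boxes, *Vcl* 4 and 1, and *Klf6* 1 and 4. *Sertad4* has 1 CCAAT box. The *Lgals12*, *Dnajc5b* and *Cyth1* windows lie in introns of their genes, downstream of the nearest start. The *Smurf1* and *Sertad4* windows lie in introns too, upstream of an internal transcript start of their gene. In *Smurf1* and *Dnajc5b* the capitals include AP-1 matches (TGACTCA or TGAGTCA, the site of FOS and JUN dimers), 2 and 1 respectively. *Lgals12* carries 2 copies of the NFI motif (TTGGCA), and *Cyth1* carries the E-box CAGCTG and a SOX match (ACAAAG or ACAATG). A match is a description of the letters in the window and was not taken as a bound site.

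The 12564 regions covered 13.2 Mb. Their median width was 1031.5 bp, from 164 bp to 1997 bp, and the middle 90% lay between 504 and 1684 bp, against a median of 655 bp for the 24670 constant regions under 2000 bp that lay over 3 kb from any start (constant distal regions). A start lay inside 11487 regions (91.4%), and the other 1077 lay beside one. In 10284 regions (81.9%) each library had a single peak, and 1285 regions (10.2%) lay near the starts of 2 or more genes, at most 4. By gene, 12464 of 20722 autosomal protein-coding genes (60.1%) had at least 1 such region, 246 had only a broader constant region, 1662 had a peak in some libraries and 6350 (30.6%) had none. Of the 16757 promoter regions under 2000 bp found in any library, 12564 were found in all 6 libraries and 1748 (10.4%) in 1 library.

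Within the regions, the summit, the position with the most reads, sat just upstream of the start in every library. The median summit position was 51, 49 and 50 bp upstream in PROLIF replicates 1, 2 and 4, and 49, 50 and 52 bp upstream in the DIFF replicates. The summit was upstream in 66.0% to 69.7% of regions and within 100 bp of the start in 50.6% to 53.2%, depending on the library. The position did not differ between the states beyond the spread of the libraries: the mean of the medians was -50.3 ± 1.53 bp in DIFF and -50 ± 1 bp in PROLIF (SD, n = 3 each, two-sided exact permutation p = 1, where the smallest possible is 0.1). From library to library the summit of a region moved little, with a median distance of 22 to 34 bp between libraries of the same state and 24 to 33 bp between libraries of different states. Over all 6 libraries the summits of a region spanned a median of 80 bp, close to the 77 bp of constant distal regions.

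**Figure D1:**
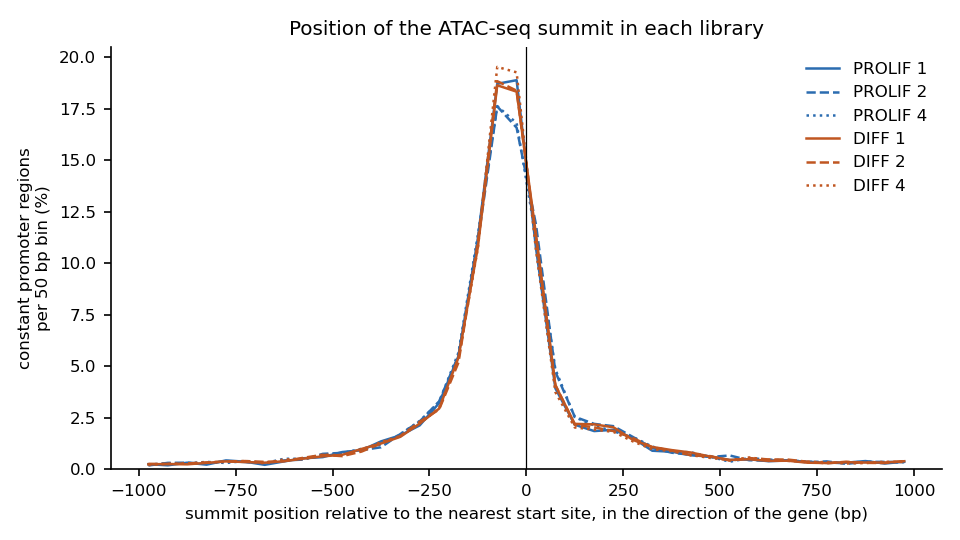
Share of constant promoter regions (y axis, percent per 50 bp bin) by the position of the summit relative to the nearest start in the direction of the gene (x axis, bp, negative upstream), with 1 line for each of the 6 libraries. All lines peak in the bins just upstream of the start, with library medians 49 to 52 bp upstream, and the PROLIF and DIFF lines overlap.

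Strength relative to the rest of the list was high. The median percentile of the regions was 86.2, 82.5 and 80.6 in PROLIF replicates 1, 2 and 4 and 86.0, 85.5 and 88.4 in DIFF replicates 1, 2 and 4. Constant distal regions had median percentiles of 69.5, 62.3 and 57.5 in PROLIF and 63.5, 63.8 and 70.6 in DIFF. The promoter regions were higher in each library, by 20.3 ± 2.60 percentile points (SD, n = 6, range 16.7 to 23.1, exact two-sided sign-flip permutation p = 0.03125, the smallest 6 libraries can give). For promoter regions under 1000 bp wide, set against the same distal regions, the gap was 13.3 points. Median fold enrichment was 8.71 to 11.4 at the promoter regions and 6.24 to 8.64 at the distal regions. Between the states, the median percentile was 83.1 ± 2.83 in PROLIF and 86.6 ± 1.57 in DIFF (SD, n = 3 each), a difference of 3.57 points that did not pass the test (exact permutation p = 0.3, where 3 against 3 libraries cannot go below 0.1). Peaks were called over a median of 850 ± 25.8 bp of a region in DIFF and 829.5 ± 65.6 bp in PROLIF (SD, n = 3 each), a difference smaller than the SD in PROLIF (exact permutation p = 0.8).

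The regions were not uniformly strong. Averaged over the libraries, the middle 90% of regions had percentiles between 43.0 and 98.5. In 3083 regions (24.5%) the peak was at percentile 90 or higher in every library, and in 209 regions (1.66%) it was below percentile 50 in every library. The 6 regions whose lowest percentile was highest were near *Gm10800*, *Gm10801*, *Hjurp*, *Pcmtd1*, *Evi5l* and *Zfp317*. *Hjurp*, which loads the centromeric histone CENP-A, had folds of 14.8 to 17.0, and *Zfp317*, a zinc finger protein gene, of 17.0 to 18.6. *Gm10800* and *Gm10801* are predicted genes in a stretch of chromosome 2 known to collect excess reads in mouse genome assemblies. At *Gm10801* the fold was only 3.39 to 4.37 although the percentile was at least 99.9, so a high rank went with a low fold there. At the other end, the regions near *Cfc1*, *Tmem63b*, *Mcc* and *Fam110c* did not rise above percentiles 25.8, 27.4, 29.3 and 29.6 in any library. The widest region kept was at *Socs1* (1997 bp), a suppressor of cytokine signalling, with folds of 7.58 to 8.16 in PROLIF and 7.34 to 9.53 in DIFF, and the narrowest left out for its width was at *Trpc4* (2001 bp), a cation channel, with folds of 4.31 to 5.77 in PROLIF and 5.13 to 6.38 in DIFF. By distance, the farthest region kept lay 997 bp from the start of *Ripor1* and the nearest left out 1001 bp from that of *Frmd4a*.

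Base composition set the regions apart from distal ones. In the 500 bp around the summit the median G+C content was 63.2% and the median ratio of observed to expected CpG was 0.78, against 48.4% and 0.22 in constant distal regions and 56.6% and 0.59 at the starts of all protein-coding genes. A window was taken as CpG-rich at a G+C content of at least 55% and a ratio of at least 0.65. By this measure 8601 constant promoter regions (68.5%) were CpG-rich, against 40.6% of start windows of all protein-coding genes and 2.81% of distal regions. The CpG-rich regions were also stronger, with median percentiles of 88.2, 84.8 and 83.1 in PROLIF and 88.5, 88.0 and 90.5 in DIFF, compared with 80.1, 75.4 and 72.5 and with 78.2, 77.4 and 82.0 in the other 3963 regions.

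Motif matches within 100 bp of the summit followed this composition. The GC box GGGCGG was found in 61.0% of constant promoter regions, 41.3% of start windows of all protein-coding genes and 8.49% of constant distal regions. CCAAT was found in 31.6%, 30.3% and 23.6%, and the ETS motif CCGGAAG in 14.0%, 9.82% and 1.64%. Less frequent promoter motifs had the same order: CACGTG (the E-box of MYC and USF factors) was in 7.71%, 6.03% and 3.44%, the NRF1 motif GCATGCGC in 4.14%, 3.04% and 0.547%, the YY1 motif ATGGCGGC in 3.66%, 2.36% and 0.361%, and the CRE TGACGTCA in 3.30%, 2.21% and 0.478%. The motifs of several other factors were more frequent far from starts. SOX matches were in 11.7% of constant promoter regions and 33.7% of distal regions, CAGCTG (an E-box of proneural basic helix-loop-helix factors) in 13.1% and 25.1%, TTGGCA (NFI) in 7.80% and 22.0%, AP-1 in 2.02% and 5.93%, and the CTCF motif in 1.36% and 7.88%. TATAAA was in 2.48% of constant promoter regions but 8.55% of all start windows. Both strands were searched, no motif contained another, and matches to different motifs could overlap in part.

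Regions with some of these motifs were stronger than regions without them in every library. The median of the mean percentile was 92.6 with the ZNF143 motif ACTACAATT (in 0.597% of regions) and 84.4 without it, 90.4 with CCAAT and 81.3 without, 88.2 and 83.7 for the ETS motif, and 86.5 and 80.1 for the GC box, in each case higher in 6 of 6 libraries. The opposite held for CTCF (69.6 with and 84.7 without), TATAAA (79.1 and 84.6), CAGCTG (79.9 and 85.0) and AP-1 (80.7 and 84.6), which were lower in 6 of 6 libraries. Composition and position differ between these classes too, and their part was not tested.

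**Figure D2:**
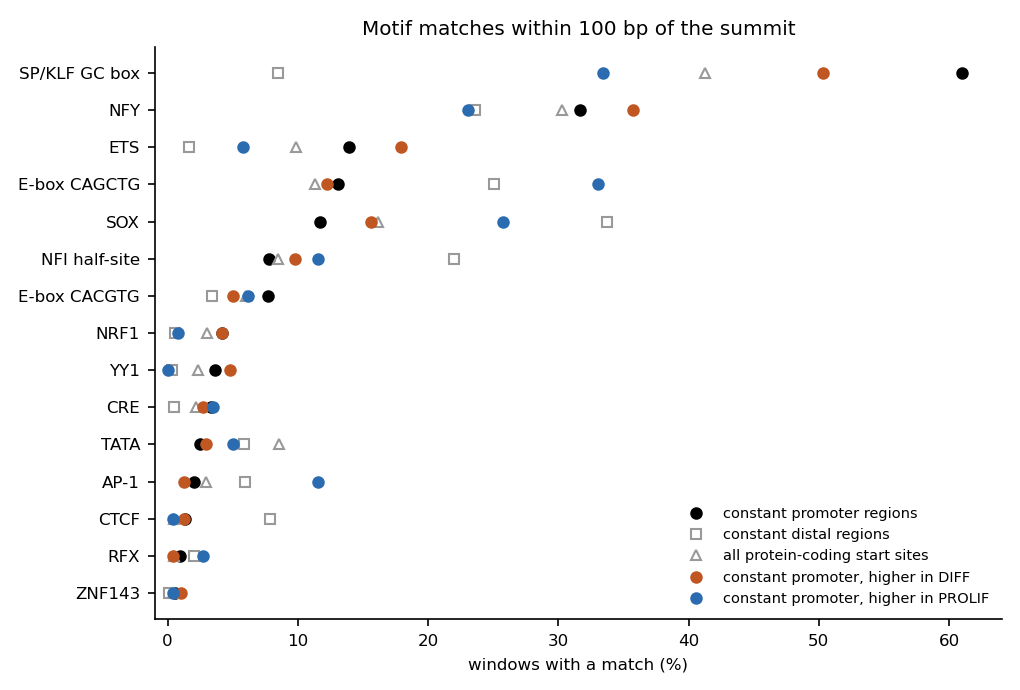
Share of windows (x axis, percent) with at least 1 match within 100 bp of the summit for each of 15 motifs (y axis), in constant promoter regions, constant distal regions, start windows of all protein-coding genes, and the constant promoter regions higher in DIFF or in PROLIF. The GC box reaches 61.0% in constant promoter regions, and among regions higher in PROLIF the AP-1 and CAGCTG points lie to the right of those of all constant promoter regions, at 11.5% and 33.1%.

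The design asks which regions were more open in proliferating or in early differentiating cultures. Over all 39088 constant regions, limma on quantile-normalised log2 fold enrichment with Benjamini-Hochberg adjustment called 15.9% at an adjusted p under 0.05, with 6.98% higher in DIFF and 8.95% higher in PROLIF. Constant promoter regions were called less often: 481 of 12564 (3.83%) were higher in DIFF and 260 (2.07%) were higher in PROLIF. In constant distal regions 2139 (higher in DIFF) and 3106 (higher in PROLIF) of 24670 were called, 21.3% in all. The median size of the difference was 0.12 on the log2 scale (1.09-fold) at constant promoter regions and 0.24 (1.18-fold) at distal regions, and 30 promoter regions (0.239%) but 885 distal regions (3.59%) differed by more than 2-fold. The median SD between libraries of a state, on the same scale, was 0.134 at promoter regions and 0.196 at distal regions. Libraries of the same state correlated at 0.902 to 0.940 and libraries of different states at 0.860 to 0.890 over the promoter regions, a description across regions that are not independent replicates. Over distal regions the correlations were 0.835 to 0.886 and 0.621 to 0.673.

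The numbers called depended on single libraries, each left out with a loss of samples. Without DIFF replicate 1, 2 or 4 the regions higher in DIFF fell to 262, 213 and 176, and those higher in PROLIF to 200, 165 and 144. Without PROLIF replicate 2 the latter were 164. In 2065 promoter regions (16.4%) all DIFF libraries lay above all PROLIF libraries, against 16.7% of all constant regions. The reverse order was found in 861 (6.85%), against 15.6%. The excess of DIFF-higher over PROLIF-higher calls at promoters, 64.9% of the calls, was also sensitive to scaling. It was 83.1% of calls with the logit of the percentile, under which the median of all constant regions shifted by 0.30, 55% to 56.7% without one of the DIFF libraries, and 56.0% where CpG-rich and other regions were normalised apart.

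**Figure D3:**
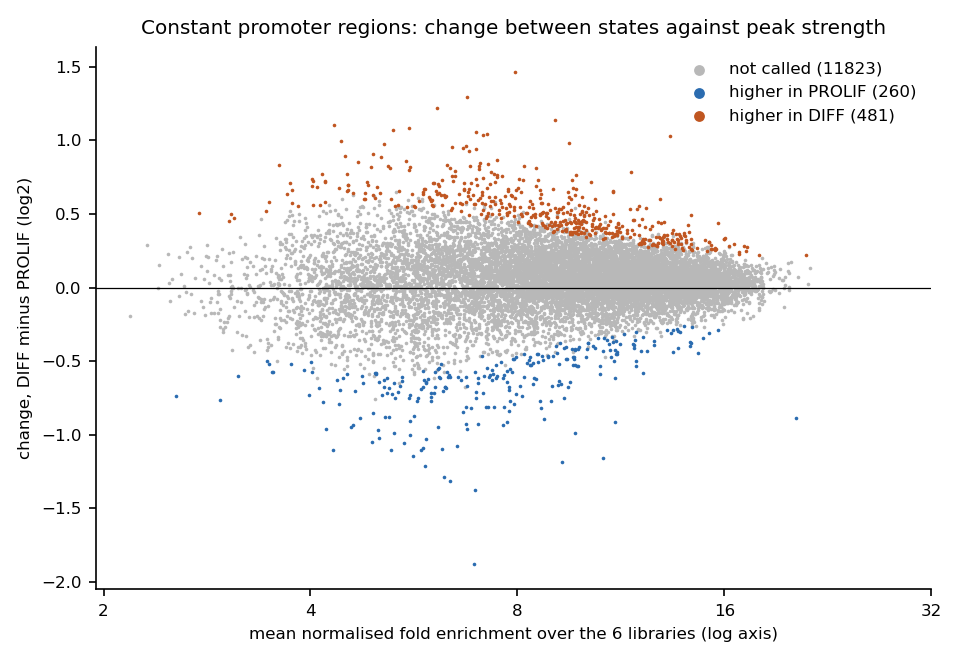
Difference between the states (y axis, DIFF minus PROLIF, log2 of quantile-normalised fold enrichment) against mean normalised fold enrichment over the 6 libraries (x axis, log scale) for the 12564 constant promoter regions, with the 481 called higher in DIFF and the 260 called higher in PROLIF in colour. Most points lie close to 0 and the spread narrows to the right.

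The share of promoter regions called differed with CpG content. Of the 8601 CpG-rich regions 3.83% were called, 279 higher in DIFF and 50 higher in PROLIF. Of the other 3963 regions 10.4% were called, 202 higher in DIFF and 210 higher in PROLIF. Distal regions showed the same order, with 5.91% of the 694 CpG-rich and 21.7% of the other regions called. The direction within the CpG-rich class depended on scaling: with the classes normalised apart the CpG-rich calls were 114 higher in DIFF and 107 higher in PROLIF, so no direction is given for that class. The balance in the other class moved too, to 252 higher in DIFF and 181 higher in PROLIF with the classes normalised apart and to 277 and 163 with the logit. Regions beside a start were called more often than regions that held one, 11.9% of 1077 against 5.34% of 11487. By strength, with all constant regions put into 4 classes of equal size, the share of promoter regions called was 7.10%, 8.69%, 7.44% and 3.61% from weakest to strongest, while for distal regions it was 13.6%, 23.8%, 27.4% and 21.5%. Each strength class of promoter regions thus had a lower share called than the distal regions of the same class.

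**Figure D4:**
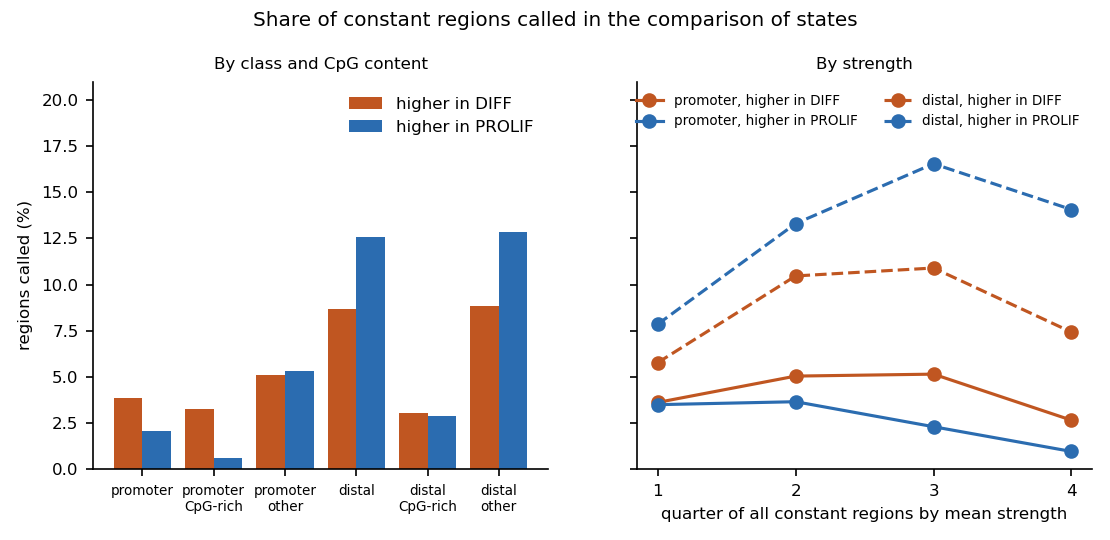
Share of constant regions called in the comparison of the states (y axis, percent), as bars for promoter and distal regions by CpG content (left) and as lines over 4 classes of mean strength, weakest first (right), in each direction. Promoter regions lie below distal regions in every strength class, and CpG-rich regions below the others on both sides.

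Among the 8 regions with the largest differences in favour of DIFF, *Lgals12*, which encodes a galectin best known from fat tissue, came first. Its fold enrichment was 5.88, 4.81 and 4.27 in PROLIF replicates 1, 2 and 4 and 11.6, 13.7 and 14.2 in DIFF replicates 1, 2 and 4. All DIFF libraries were above all PROLIF libraries, with a log2 difference of 1.47 ± 0.14 (SE, limma adjusted p = 5.04e-06). *Bbox1* (chr2:110314241-110315049), the last enzyme of carnitine synthesis, had 8.31, 6.09 and 4.94 in PROLIF and 14.2, 14.0 and 12.1 in DIFF. The difference was 1.14 ± 0.14 (SE, limma adjusted p = 2.85e-05), and here the summit lay 21 bp upstream of the start. An AP-1 match lay within 100 bp of this summit, as at *Smurf1* and *Dnajc5b*, although *Bbox1* was higher in DIFF. At *Sertad4* the values were 4.72, 5.60 and 4.50 in PROLIF against 9.12, 10.7 and 10.0 in DIFF, with a difference of 1.06 ± 0.17 (SE, limma adjusted p = 0.00036). *Actn4* (chr7:28917593-28918335), an actin cross-linking protein, had 3.02, 2.60 and 3.40 in PROLIF and 6.53, 6.43 and 5.60 in DIFF. The difference was 1.10, at a summit 1079 bp downstream of an internal transcript start. The rest of the 8 were *Golga7b* (1.30), *Rnase13* (1.22), *Cog4* (1.09, a Golgi trafficking complex gene that shares its region with the splicing factor *Sf3b3*) and *Dnah7c* (1.07, an axonemal dynein heavy chain).

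In the other direction the largest difference was at the predicted gene *Gm17677* (chr9:35740423-35741220), with folds of 13.8, 12.6 and 14.3 in PROLIF and 3.45, 3.79 and 3.14 in DIFF. The log2 difference was -1.88 ± 0.17 (SE, limma adjusted p = 3.55e-06). *Cyth1*, an exchange factor for ARF GTPases, had 12.6, 10.7 and 10.8 in PROLIF and 4.14, 4.30 and 3.99 in DIFF, a difference of -1.38 ± 0.16 (SE, limma adjusted p = 2.04e-05) at the intronic summit shown above. *Smurf1*, a ubiquitin ligase of the TGFβ and BMP pathway, had 13.3, 10.1 and 7.77 in PROLIF and 4.03, 3.79 and 3.85 in DIFF. Its difference of -1.32 ± 0.18 (SE, limma adjusted p = 6.82e-05) was at the window with 2 AP-1 matches. *Dnajc5b*, a gene of the DnaJ family, had 18.2, 15.9 and 14.0 in PROLIF and 8.20, 8.34 and 4.99 in DIFF, a difference of -1.16 ± 0.15 (SE, limma adjusted p = 6.55e-05). The others of the 8 were *Trim6* (-1.29), *Golga7b* (-1.22), *R3hdm1* (-1.19) and *Paqr8* (-1.14). In all 16 regions the 3 libraries of a state lay apart from the 3 of the other, which the rule for naming them required. Only the *Golga7b* region higher in DIFF was CpG-rich among the 16. The starts nearest to the regions of *Golga7b*, *Actn4*, *Dnah7c*, *Cyth1*, *R3hdm1* and *Paqr8* lay well inside the annotated gene, as at *Smurf1* and *Sertad4*. Differences at these genes were thus at internal transcript starts and not at the outermost start of the gene.

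**Figure D5:**
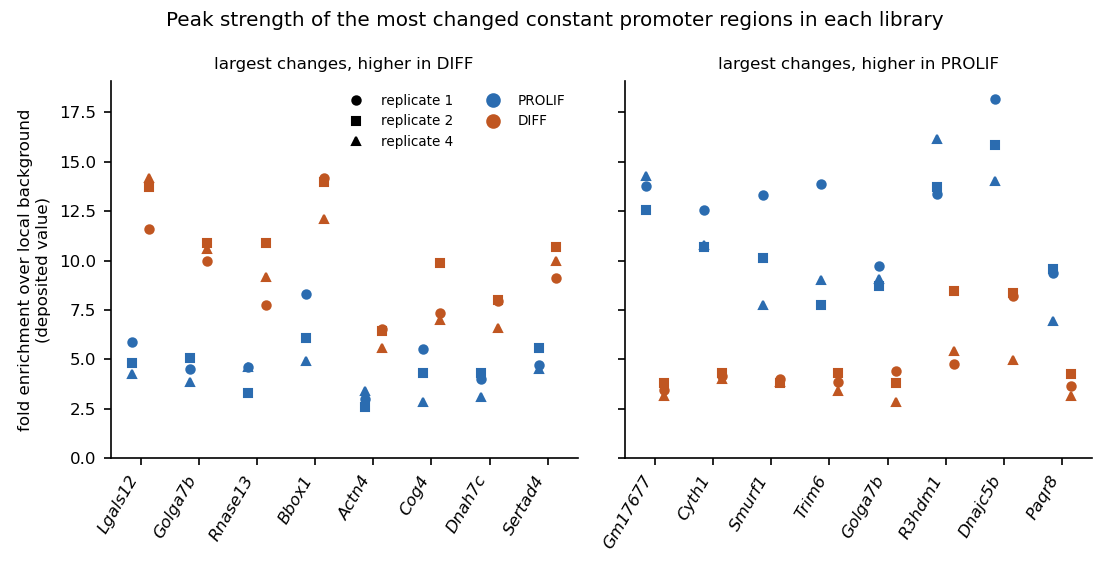
Fold enrichment over local background (y axis, as deposited) of the 8 constant promoter regions with the largest called differences in each direction (x axis, by nearest gene), with 1 point for each of the 3 PROLIF and 3 DIFF libraries. The libraries of a state lie apart from those of the other in every region, and *Gm17677* falls from 12.6 to 14.3 in PROLIF to 3.14 to 3.79 in DIFF.

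A further region was picked out after its values were seen. At *Phf21a*, which encodes a component of a histone demethylase complex, the folds were 27.1, 27.8 and 32.1 in PROLIF and 10.8, 13.4 and 22.0 in DIFF. This was among the strongest promoter peaks by fold and had a log2 difference of -0.89, with the DIFF libraries widely spread. The region (chr2:92093597-92093785) was only 189 bp wide and not CpG-rich.

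Genes with several constant regions showed that promoter regions of the same gene could differ in opposite directions. Of 1228 genes with 2 or more constant promoter regions, 12 had regions called in both directions. In 9 of the 12 the region higher in DIFF had its summit nearer to a start. Called promoter regions as a whole went the same way: 87.9% of those higher in DIFF and 73.1% of those higher in PROLIF held a start. Holding a start also went with CpG content, at 96.6% of CpG-rich and 80.2% of the other promoter regions. Among called regions that were not CpG-rich the shares were closer, 75.7% of those higher in DIFF and 69.5% of those higher in PROLIF. The part of CpG content was not tested. At *Golga7b* a region with its summit 283 bp downstream of an internal transcript start (chr19:42255739) had folds of 4.50, 5.09 and 3.87 in PROLIF. In DIFF they were 9.99, 10.9 and 10.6. The next region, with its summit 1437 bp downstream, had 9.72, 8.73 and 9.05 in PROLIF and 4.39, 3.83 and 2.87 in DIFF. The 2 regions thus exchanged order between the states. *Exosc9*, a subunit of the RNA exosome, had folds of 6.59, 5.83 and 5.57 in PROLIF and 9.37, 9.89 and 10.1 in DIFF at the summit 64 bp upstream of its start (log2 difference 0.76). At the summit 1082 bp upstream it had 12.1, 9.26 and 9.91 in PROLIF and 6.42, 5.10 and 5.88 in DIFF (-0.77). *Fscn1*, the actin bundling protein fascin, showed the same arrangement downstream. Its summit 30 bp upstream of the nearest start had 3.22, 3.67 and 3.00 in PROLIF and 5.21, 5.15 and 5.41 in DIFF (0.77). A summit 1193 bp downstream of a different start had 7.01, 6.21 and 6.46 in PROLIF and 2.78, 3.86 and 3.17 in DIFF (-0.93). These starts are at chr5:142960376 and chr5:142960843. *Dpysl4*, a collapsin response mediator, was an exception. The region with its summit 13 bp downstream of a start (chr7:139086001) was higher in PROLIF (-0.71). The region higher in DIFF (1.05) had its summit 344 bp upstream of a later start (chr7:139088365), downstream of the other region. The other genes were *Lrp8*, *Pou2f1*, *Cacnb2*, *Syt11*, *Ank2*, *Coro1c*, *Tcf12* and *Pacs2*. At *Lrp8*, *Pou2f1* and *Coro1c* the opposite calls were not at neighbouring regions but at separate, distant starts. For *Lrp8* they were at chr4:107801444-107802717 and chr4:107830730-107831319. These 12 genes were listed because of their calls. *Golga7b*, *Exosc9* and *Fscn1* kept both calls under each scaling and without each library, and each of the other 9 genes lost at least 1 call under some of them. The number that kept both calls fell to 4 with the logit, to 5 without PROLIF replicate 4, to 6 without any other library, to 9 with CpG-rich and other regions normalised apart and to 10 with median centring.

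Motif matches differed between the regions called in each direction, for some motifs only under some scalings. Median G+C was 54.9% and the CpG ratio 0.43 in the 260 regions higher in PROLIF, against 60.2% and 0.74 in the 481 regions higher in DIFF. The GC box was in 33.5% and 50.3% of them and the ETS motif in 5.77% and 17.9%. The differences in G+C and the GC box went with the share of CpG-rich regions, which depended on scaling. That share was 19.2% of those higher in PROLIF and 58.0% of those higher in DIFF. With CpG-rich and other regions normalised apart the CpG-rich share was 37.2% and 31.1%, median G+C was 57% and 56.7%, and the GC box was in 40.3% and 40.7%. Among regions that were not CpG-rich, the GC box was in 27.1% of those higher in PROLIF and 25.2% of those higher in DIFF, with a median G+C of 52.8% and 53.4%, so neither carried over. In the same class the ETS motif was in 5.24% of those higher in PROLIF, 9.41% of those higher in DIFF and 7.49% of those not called. CCAAT was in 23.8%, 33.2% and 34.8%. Both motifs stayed more frequent in regions higher in DIFF under every scaling and without each library. AP-1 and CAGCTG also differed in the same direction under every scaling and without each library, with more in regions higher in PROLIF. AP-1 matches were in 11.5% (30 regions) of those higher in PROLIF and 1.25% (6 regions) of those higher in DIFF, and CAGCTG in 33.1% and 12.3%. With the CpG classes normalised apart the shares were 10.4% and 1.64% for AP-1 and 31.2% and 13.4% for CAGCTG. Among regions that were not CpG-rich, AP-1 was in 13.3% of those higher in PROLIF, 2.97% of those higher in DIFF and 2.84% of those not called. CAGCTG was in 33.8%, 17.3% and 17.7% of the same 3 classes, while SOX was in 29.5%, 27.7% and 18.1% and so did not separate the directions. The contrast in AP-1 and CAGCTG was not particular to promoters. Constant distal regions higher in PROLIF held AP-1 in 16.8% and CAGCTG in 38.7%, and those higher in DIFF in 1.87% and 18.6%. SOX was in 40.7% of distal regions higher in PROLIF and 31.4% of those higher in DIFF. With CpG-rich regions included, SOX was in 25.8% of promoter regions higher in PROLIF and 15.6% of those higher in DIFF. Among the 254 constant promoter regions with an AP-1 match, 30 (11.8%) were higher in PROLIF and 6 (2.36%) higher in DIFF. Over all constant promoter regions these shares were 2.07% and 3.83%. The 30 higher in PROLIF included the regions at *Itga5*, an integrin subunit for fibronectin, *Tgfbr2*, the type II receptor of TGFβ, and *Clu*, the secreted chaperone clusterin. *Bag3*, a co-chaperone of stressed cells, and *Zbtb20*, a transcriptional repressor, were among them too. These genes are examples picked after their values were seen.

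Genes that every cell uses were nearly all covered by constant promoter regions of ordinary width. All 31 proteasome genes had at least 1, in 32 regions with a median percentile of 88.5, and 3 were higher in DIFF, namely the catalytic subunits *Psmb6* (log2 difference 0.73) and *Psmb7* (0.67) and the ring subunit *Psma5* (0.33). All 35 genes of respiratory complex I had a region (37 regions, median percentile 85.7) and none was called. All 20 genes of aminoacyl-tRNA synthetases had a region (median percentile 90.7) and again none was called. For RNA polymerase II and its general factors, all 36 genes had a region (38 regions, median percentile 86.1). Of these, *Polr2k* (0.66), *Polr2e* (0.63), *Gtf2h4* (0.41) and *Gtf2e1* (0.27) were higher in DIFF and *Gtf2b* (-0.34), which bridges polymerase and the TATA-binding protein, was higher in PROLIF. Among spliceosome genes, 28 of 30 had a region (29 regions, median percentile 86.4) and 6 were higher in DIFF, those of *Sf3b3*, *Snrpc* (0.72), *Sf3a3* (0.56), *Snrpg* (0.54), *Snrpa1* (0.36) and *Sf3b2* (0.35). For comparison, 5.90% of all constant promoter regions and 15.9% of all constant regions were called, and 60.1% of all autosomal protein-coding genes had a region.

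Chromatin regulators had regions at 32 of 34 genes (41 regions, median percentile 80.0). *Dnmt3a*, a DNA methyltransferase that sets new methylation, was higher in DIFF (0.71), and no other was called. Replication and mitosis genes had regions at all 28 genes and the highest median percentile of the lists, 92.7, with *Mcm3* at a mean percentile of 99.8 and *Ccnb2*, a mitotic cyclin, at 22.8. Only *Bub1* (0.51), a spindle checkpoint kinase, and *Ccne1* (0.40), the cyclin of S phase entry, were called, both higher in DIFF, which is 2 of 28 regions beside the 5.90% called over all constant promoter regions. Growth factor response genes had a region of ordinary width at 22 of 28, and *Jun*, *Dusp4*, *Spry4* and *Etv1* had only a broader one. In this list *Klf6* (0.46) and the region shared by *Dusp1* and *Ergic1* (0.43) were higher in DIFF, and *Dusp6* (-0.52), the phosphatase of ERK that is induced by FGF signalling, was higher in PROLIF. Of the serum response genes 15 of 19 had a region, with a median percentile of 73.3, and *Myl9* (0.50), a myosin light chain, was higher in DIFF.

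The neural lists varied more in coverage. Neural stem cell genes had regions at 23 of 24 (29 regions, median percentile 81.4). *Tnc*, the matrix protein tenascin C, had folds of 12.8, 10.8 and 10.4 in PROLIF and 6.62, 8.37 and 8.65 in DIFF, and was the only one called (log2 difference -0.49, limma adjusted p = 0.0109). At *Sox2*, the gene of the deleted enhancer, the region with its summit 550 bp upstream of the start had folds of 10.3, 9.43 and 8.21 in PROLIF and 7.61, 7.16 and 8.71 in DIFF. The states overlapped and the difference of -0.19 did not pass the test (limma adjusted p = 0.415). Neuron genes had regions at 12 of 18 (17 regions, median percentile 66.8), and *Camk2a*, a synaptic kinase, was higher in PROLIF with folds of 10.8, 9.38 and 8.68 against 5.61, 4.55 and 3.99 in DIFF (-0.96, limma adjusted p = 0.00121). Oligodendrocyte genes had regions at 7 of 15 and astrocyte genes at 9 of 12, and none was called. Beside these lists, 60.1% of all autosomal protein-coding genes had a region and 5.90% of all constant promoter regions were called. The lists were too small for their counts of calls to be told from that share. Among the oligodendrocyte genes *Sox10*, *Mag*, *Mobp* and *Bmp4* had no peak near the start in any library. Genes on the X chromosome, such as *Dcx* and *Syp*, lay outside the chromosomes used.

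Markers of cells outside the neural lineage were mostly without a constant promoter region. Among 15 microglia genes, 2 had a region and 11 had no peak near the start in any library. *P2ry12*, a purinergic receptor of microglia, had folds of 11.9, 8.88 and 9.62 in PROLIF and 5.83, 7.08 and 5.13 in DIFF (-0.70, limma adjusted p = 0.00401). Among 14 endothelial genes, 3 had a region (*Kdr*, *Flt1* and *Egfl7*), 10 had no peak and none was called. Of all autosomal protein-coding genes, 60.1% had a region and 30.6% had no peak. With 5.90% of all constant promoter regions called, counts over so few regions cannot be told from that share. Accessibility of a promoter is not expression, and RNA was not analysed here.

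No called region of these lists changed direction under another scaling or without a library, but many lost the call. Of the 19 list regions higher in DIFF, 12 lost it without DIFF replicate 2 and 12 without DIFF replicate 4. *Psmb6*, *Sf3b3*, *Snrpc*, *Snrpg*, *Tnc* and *Camk2a* kept it throughout. Under other scalings *Bub1*, *Gtf2b*, *Dusp6* and *P2ry12* lost it with the logit, *Gtf2e1*, *Gtf2b* and *Dusp6* with median centring, and *Gtf2e1*, *Snrpa1* and *Ccne1* where CpG-rich and other regions were normalised apart.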

How the data were processed

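The data were 6 ATAC-seq peak lists from Srr2 del/del cultures, 3 PROLIF and 3 DIFF, grouped by the state and replicate number in the labels. The authors trimmed reads with Cutadapt and Trimmomatic, used Bowtie2 against GRCm38 and Picard for duplicates, and ran MACS2 in narrow mode on each library apart (no model, FDR 0.05). Versions, read shift, extension and blacklist are not given in the sources used here, and each can move peak edges. As deposited by the authors, fold enrichment is the ratio of a peak to its local background, and the deposited −log10 p and −log10 q values rank peaks against it. A list holds only peaks over the caller's threshold, and absence from it does not show closed chromatin. Read totals were not used here. Background reads were derived from the fold and p of each peak under the Poisson model of MACS2, and percentile 1 is given per library.

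Each region was given the fold and rank of its best-ranked peak in each library. Log2 folds of the 39088 constant regions were quantile-normalised and tested with limma 3.58.1 (R 4.3.3, trend, no pseudocount since every value was a called peak), with Benjamini-Hochberg adjustment over all of them. Values per library were compared by exact permutation with scipy 1.17.1. The fits were tested on simulated data. Motifs and composition were read from the GRCm38 reference on both strands, and start windows were shifted 50 bp upstream. Start windows used a single start per gene, that of its most upstream protein-coding transcript. Constant regions were instead centred on the observed summit, near any protein-coding transcript start, so the comparison is not of like windows. The DIFF and PROLIF libraries were treated as unpaired, as the study's methods state no block. The study describes profiling the states on the same cultures, so the alternative took same-numbered libraries as pairs. Over all constant regions, deviations from the state means correlated at 0.072, 0.119 and 0.103 between same-numbered libraries and at -0.089 to -0.005 between others. Over constant promoter regions the correlations were 0.027, 0.119 and 0.083 between same-numbered libraries and -0.096 to 0.019 between others.

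Members, gene lists and tests were chosen with earlier results of these data known. Named were, in each direction, the 8 called regions with the largest difference and no overlap of the states, the 6 strongest and 4 weakest, those next to the limits, and the extreme and most changed of each of 15 gene lists. The genes with opposite calls, the AP-1 genes and *Phf21a* were added after their values were seen. The values of 1 list gene are not reported here. Alternatives were other scalings, filters, peak thresholds, widths, distances and library numbers, each library left out, no chromosome 10 and the replicate block.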

Additional observations from a re-analysis of the deposited data

How the results depend on the processing

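Calls of constant promoter regions under other settings were compared with the 481 higher in DIFF and 260 higher in PROLIF. With the logit of the within-list percentile they were 972 and 197, of which 366 and 129 kept their call and 1 was reversed, and the cause was not tested. Median centring, lists cut to equal length, peaks at q of 0.001 or lower, the weakest regions left out and chromosome 10 left out gave 428 to 543 and 215 to 253. Leaving out 1 library gave 176 to 409 and 144 to 205. Alternatives chosen after seeing the data were CpG classes normalised apart (366 and 288, with 316 and 231 calls kept) and all transcripts as starts (533 and 352). With the replicate block, pairing libraries by number, 607 and 315 were called, 478 and 260 of them shared with the unpaired calls. Differences between the states in values per library did not cross their threshold under the block. An exact permutation over so few pairs cannot cross it, so no conclusion is drawn from this. The difference in median percentile between the states was 2.33 to 5.12 points without 1 library. The difference in median width was -16.4 to 45.3 bp without 1 library and turned without PROLIF replicate 4. The difference in median summit position was -1 to 0.5 bp without 1 library, 0.333 bp at q of 0.001 or lower and 0.167 bp within 500 bp of a start, all far below the spacing of the summits. The gap between promoter and distal percentiles was 19.8 to 21.1 points without 1 library, where the smallest possible p is 0.0625. The number of regions was 12625 to 12890 with 5 libraries required, and 5814 under 1000 bp wide. For the 16 named changed regions, 189 of 189 values under other settings kept their direction and side of the threshold. Read totals were not used here, and a shallower library calls fewer weak peaks.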
